A study of Mus musculus with 6 samples.

Results

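The 10 genes described here encode the ligands, receptors, Smads and Ski-family corepressors of the TGF-β pathway, and they were chosen by name: Tgfb1, Tgfb2, Tgfb3, Tgfbr1, Tgfbr2, Tgfbr3, Smad4, Smad7, Ski and Skil. All 10 had a row, among 31310 genes of the table, and they were represented by 62 assembled isoforms. PolyA RNA was measured in TT-FHAgo2, a line of mouse embryonic stem cells with doxycycline-controlled Argonaute 2 (Ago2), the effector protein that binds microRNAs and is guided by them to target transcripts. All cells came from clonal lines propagated in 0.1 µg/mL doxycycline, on gelatin in medium with serum and leukemia inhibitory factor. One group of 2 libraries was raised to 2.5 µg/mL for 48 h, the dose the labels tie to wild-type Ago2, and the other group of 2 libraries was kept off the drug for 96 h. The groups therefore differ in drug and in time. The spike-in libraries of the series, 1 of these cells and 1 of mesenchymal stem cells, were not analysed here. Whether the 2 libraries of a group came from separate cultures is not stated in the labels, so every p-value measures only the spread between these libraries, which may be technical.

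TGF-β ligands are secreted in a latent form, and once released they bind the type II receptor, which recruits and phosphorylates the type I receptor. The type I receptor then phosphorylates receptor-regulated Smads, which join the common partner Smad4 and move to the nucleus. Smad7 blocks this step at the receptor, and Ski and Skil (also called SnoN) bind the Smad complex on DNA and hold its target genes down. Embryonic stem cells also carry abundant microRNAs from the miR-290 cluster and from the related miR-302 cluster, several of which share a seed, and Tgfbr2 is a well-known target of these families.

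The microRNAs are shown first because the perturbed protein acts through them. The study's own sequences were not used; the mature sequences below are RefSeq's, on GRCm38.p6, with the seed (bases 2 to 8) in capitals. The table held 5 mature microRNAs with the seed of miR-291a-3p, of which 3 are printed, and 7 with the seed of miR-17-5p, which is shifted by 1 base.
miR-291a-3p: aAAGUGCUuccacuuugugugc
miR-294-3p: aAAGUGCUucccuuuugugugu
miR-302b-3p: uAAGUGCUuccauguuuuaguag
miR-17-5p: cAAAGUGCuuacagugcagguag
miR-19b-3p: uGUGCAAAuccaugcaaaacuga
miR-130a-3p: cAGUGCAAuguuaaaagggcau
let-7a-5p: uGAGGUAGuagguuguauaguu

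Matches to 12 such seeds were counted in the longest 3′ untranslated region (UTR) of each gene in GENCODE release M21, on the transcript strand. The reverse complement of the seed is a 7mer-m8, the same run followed by A is an 8mer, and 6 seed bases followed by A are a 7mer-A1. Of the 10 genes, Tgfbr2 and Tgfbr1 held a match of 7 or 8 bases to the miR-291a-3p family. Tgfbr2 held 1 8mer and 2 7mers in a UTR of 6085 nt, and Tgfbr1 held 1 7mer in 4154 nt. Each is printed with its neighbouring bases and the match in capitals, named by its distance from the stop codon.
Tgfbr2 at 491: gggatagcgttAGCACTTgacaatcagtca
Tgfbr2 at 2600: tcaaaacctaaAGCACTTAttttcaatcta
Tgfbr2 at 5016: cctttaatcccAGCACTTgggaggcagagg
Tgfbr1 at 342: gcactaaatgaAGCACTTctgattttcact
A long UTR holds such letters often. Among 672 UTRs within 20% of the length of the Tgfbr2 UTR, 61.9% held a match of 7 or 8 bases to this family and 13.4% an 8mer, and for the 1678 UTRs near the length of the Tgfbr1 UTR the share was 42.8%. Over all 21153 UTRs it was 18.4%. The match at 5016 lies in repeated sequence: the 24 bases around it also occurred in the UTRs of 139 other genes, while those around the other 3 occurred in 0.

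The corepressors had no 7- or 8-base match to miR-291a-3p but 1 each to the miR-17 family, a 7mer-m8. Tgfbr2 held an 8mer of that family, Smad7 a 7mer-m8, and Tgfb3 and Tgfbr1 a 7mer-A1 each. Those of Ski, Skil and Tgfbr2 are printed.
Ski at 959: tatttagaactGCACTTTgtcagaaccttc
Skil at 1047: gggcagcctttGCACTTTtctttgtttttg
Tgfbr2 at 298: caataacgtttGCACTTTAttaatgcctgt
UTRs of like length held a match to this family in 40.2% of cases for Ski (3266 nt), 45.0% for Skil (3964 nt) and 58.9% for Tgfbr2. For Smad7, Tgfb3 and Tgfbr1 the shares were 21.6%, 14.3% and 44.9%. In Tgfbr2 and Skil the match overlapped a miR-19 and a miR-130 match, which gave both UTRs the same run of 10 bases, TTTGCACTTT, found in 142 of the 21153 UTRs (0.671%). That run was taken from these 2 UTRs themselves, and its share among UTRs of like length was not counted. For let-7, Tgfbr1, Tgfbr3 and Skil each held an 8mer, as did 8.76%, 6.16% and 8.35% of UTRs of like length. Over all UTRs the share with a let-7 8mer was 3.54%. The 8mers of Tgfbr1 and Skil are printed.
Tgfbr1 at 66: ggctggttgttCTACCTCActgagagaaca
Skil at 3739: aaaactgtcctCTACCTCAcgtgaaataaa
A match is a description of the letters and not evidence of binding. Tgfb1 (436 nt) held no match of 7 or 8 bases to any of the 12 seeds. The transcript matched to its leading isoform has a shorter UTR, of 135 nt. Only annotated UTRs were searched. That of Smad4 is 1249 nt, while an assembled Smad4 isoform of 7296 nt has a last exon of 5705 nt. The rest of that exon was not searched.

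**Figure D1:**
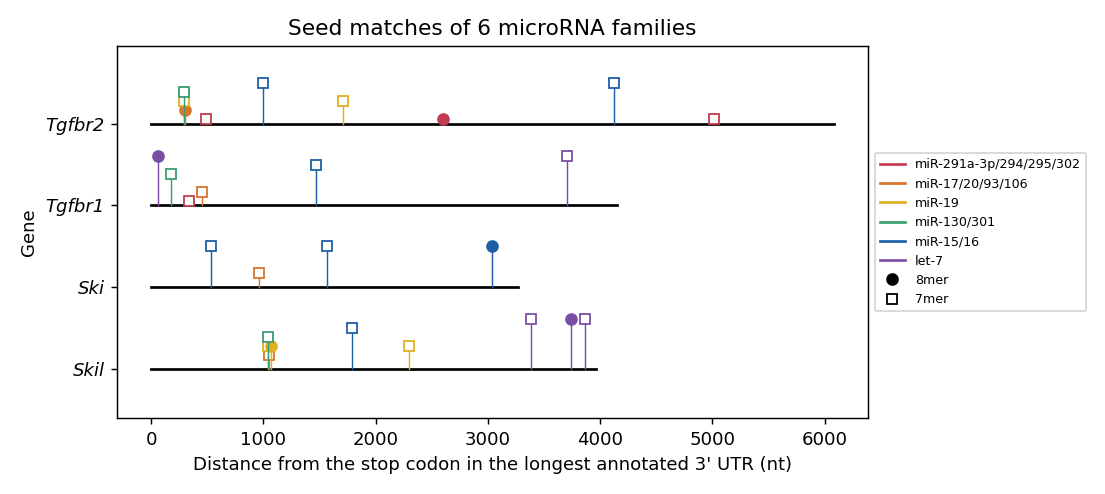
Position of seed matches in the longest annotated 3′ UTR of Tgfbr2, Tgfbr1, Ski and Skil, as distance from the stop codon in nt (x axis), with filled circles for 8mers, open squares for 7mers and 1 colour per microRNA family. Matches to the miR-291a-3p family (red) are on the receptors, and the overlapping matches of 3 families lie around 298 nt in Tgfbr2 and 1047 nt in Skil.

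Levels are FPKM, a fragment count divided by transcript length and library total, summed over a gene's isoforms. They are therefore per length and may be compared between genes. The libraries of each condition are called drug library 0 and 1 and no-drug library 0 and 1, as the columns are numbered, and errors are SD over n = 2 libraries. Low values stepped in whole reads in 100% of the values examined in both libraries numbered 1, which puts their depth at 46.5 M (mega) and 46.6 M fragments. In the libraries numbered 0, 34.0% and 34.4% were whole, which leaves their depth unknown. Each share is the best over the depths and length offsets tried, whereas chance gives 20% at a fixed setting. On a 2000-nt transcript, 3 reads correspond to 0.0354 and 0.0353 FPKM in the libraries numbered 1. Ago2 stood at 35.2 and 36.7 FPKM with doxycycline and 28.7 and 28.8 without, and fell by 0.32 on the log2 scale (SE 0.08, limma, adjusted p = 0.0287). That call was lost when any 1 library was left out, with adjusted p between 0.0751 (without the no-drug library 1) and 0.206 (without the drug library 1). The Ago2 change also missed the threshold when each library was rescaled to the same sum (TPM), at -0.16 (limma, adjusted p = 0.148). It did so by the most abundant isoform (-0.18, 0.412) and with isoforms equal to a reference transcript only (-0.82, 0.0506). The other settings with all 4 libraries kept the call. Which part of the Ago2 signal is the controlled transgene was not tested. The 10 embryonic stem cell markers were all expressed and summed to 4221 to 4989 FPKM, and 5 of them were called: Nanog (0.54) and Fgf4 (0.83) were higher without the drug, and Zfp42 (-0.49), Klf4 (-0.42) and Utf1 (-0.61) lower. That is 50% called, beside 41% of all genes tested. Of 10 fibroblast and feeder markers 1, Thy1, reached 1 FPKM, Col3a1 and Postn were at 0, and their sum was 2.73 to 3.01 FPKM with the drug and 3.12 to 3.41 without. The 7 mesoderm markers summed to 2.52 and 2.55 FPKM with the drug and 3.40 and 3.47 without, and the 7 endoderm markers to 2.09 and 2.43 against 1.70 and 1.95, with Afp at 0. The 6 neuroectoderm markers summed to 63.9 to 76.7 FPKM, most of it Tubb3. Within these lineage lists Nes rose from 2.17 ± 0.131 to 4.63 ± 0.364 FPKM (limma, adjusted p = 0.00416), Kdr from 0.419 ± 0.0331 to 1.39 ± 0.116 (adjusted p = 0.00562) and Gata4 from 0.656 ± 0.223 to 1.33 ± 0.0853 (adjusted p = 0.0350). Kdr and Gata4 were the only tested genes of their lists, and reached the minimum of 1 FPKM only without the drug. Sox7 went from 0.618 ± 0.0643 to 0.0516 ± 0.00476 FPKM and Dab2 from 0.797 ± 0.114 to 0.224 ± 0.0754, both below that minimum and not tested. Both libraries without the drug were higher for 2 endoderm, 2 mesoderm and 1 neuroectoderm marker, and lower for 3, 2 and 1. Among all genes tested the groups did not overlap for 73.1%, 33.1% with both higher and 40% with both lower. The part of these marker differences in the results below was not tested, and in bulk RNA fewer cells with a transcript and less of it per cell cannot be told apart.

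With doxycycline Smad7 (25.8 ± 2.55 FPKM) and Smad4 (25.4 ± 3.73) were the most abundant and their libraries overlapped, followed by Ski (22.6 ± 0.0958), Skil (17.99 ± 0.962), Tgfbr1 (9.43 ± 0.828) and Tgfb1 (5.84 ± 0.192). The 4 others were below 1 FPKM: Tgfbr3 and Tgfb2 overlapped each other, Tgfbr2 was lower than both, and Tgfb3 was lowest. Without doxycycline Ski led, at 31.2 ± 0.244 FPKM, Smad7, Skil and Smad4 overlapped their neighbours in that order, and Tgfbr2 moved from the ninth place to the seventh, above Tgfb2 and Tgfbr3. Tgfb3 stayed last, and the type I receptor was well above the type II receptor in either condition.

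**Figure D2:**
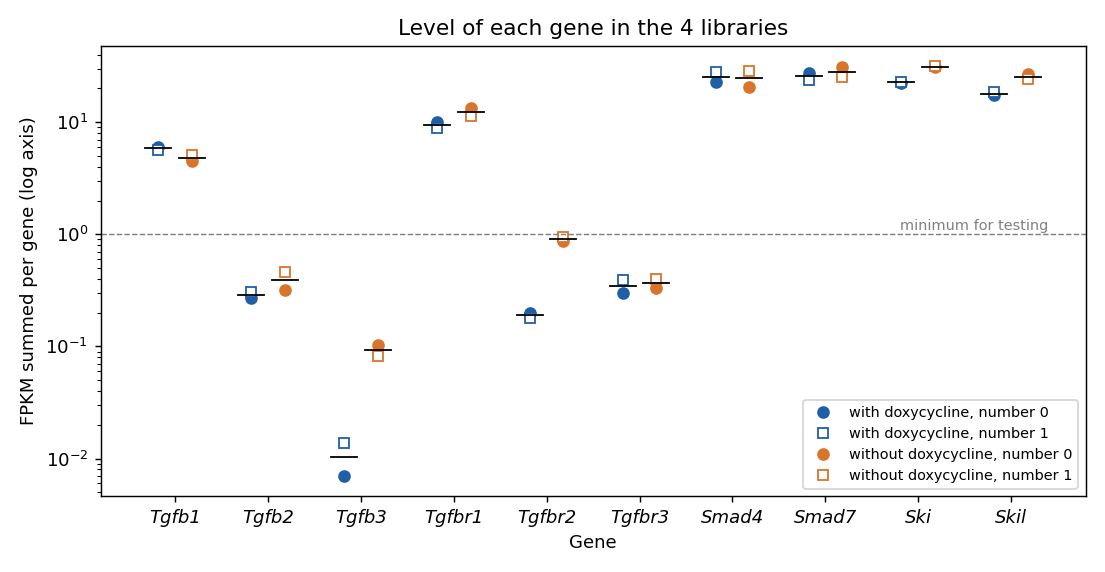
FPKM summed per gene on a log axis for the 10 genes in each of the 4 libraries (blue with, orange without doxycycline; filled circles library 0, open squares library 1; black bars, means). Ski and Skil are higher in both orange libraries, Tgfbr2 moves up towards the dashed line at 1 FPKM, the minimum for testing, and Smad4 and Smad7 overlap.

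The comparison asked how these transcripts differ when the drug that controls Ago2 is withdrawn. Changes are given as log2(FPKM + 0.5) without minus with doxycycline, a scale that understates the change of low genes, and were tested with limma where the mean over the 2 libraries of a condition reached 1 FPKM for one or both conditions. Of the 13207 genes tested, 41% passed at an adjusted p of 0.05 (Benjamini-Hochberg over all of them), 19.7% higher and 21.3% lower without the drug. Of the 6 tested members 2 passed, Ski and Skil, both higher. In this fit no member passed as lower, although Tgfb1 had an unadjusted p of 0.0423. These 2 of 6 are 33.3%, which is below the background share. Their median change was 0.24, against -0.06 for all genes tested. Over all 10 members, tested or not, 6 had both libraries higher without the drug, 1 had both lower and 3 overlapped, where among the genes tested the groups did not overlap for 73.1%, 33.1% with both higher and 40% with both lower. Rescaling each library to the same sum (TPM) moved the median of all genes to 0.10 and the split of calls from 2608 higher and 2809 lower to 3996 higher and 1917 lower.

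Of the ligands, Tgfb1, the form made by most cell types, was the only 1 above the minimum. It stood at 5.97 and 5.70 FPKM with doxycycline and at 4.46 and 5.04 without. Both values without the drug were below both with it, but the difference of -0.27 (SE 0.10) did not pass (limma, adjusted p = 0.0855). When both conditions were scaled to the same median it was -0.33 and passed narrowly (adjusted p = 0.0497). The libraries numbered 1, whose reads could be recovered, held 382 and 340 reads, a ratio of 0.888 with an exact 95% interval of 0.765 to 1.03. Such intervals cover counting error only, and they compare 2 libraries, not the conditions.

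Tgfb2, which acts mainly in embryonic development, stood at 0.271 and 0.304 FPKM with the drug and at 0.320 and 0.459 without. The libraries did not overlap, but the read counts of 52 and 61 gave a ratio of 1.17 with an interval of 0.795 to 1.73, so a difference was not detectable at this depth. Tgfb3, known for its part in palate fusion, was nearly absent at 0.00702 and 0.0137 FPKM with the drug and stood at 0.103 and 0.0818 without. Its libraries rest on 2 and 12 reads (ratio 5.99, interval 1.33 to 55.1). Neither gene reached the minimum for testing. With no minimum, over 23606 genes, limma gave an adjusted p of 0.358 for Tgfb2 and of 0.0462 for Tgfb3.

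The receptors are described in turn. Tgfbr2, the type II receptor that binds the ligand and starts the signal, and the gene with the 3 miR-291a-3p matches printed above, stood at 0.199 and 0.178 FPKM with doxycycline and at 0.877 and 0.948 without. Both libraries without the drug were well above both with it, 0.912 ± 0.0504 against 0.189 ± 0.0144 FPKM, a ratio of means of 4.84. On the log2(FPKM + 0.5) scale this is 1.04, the largest difference among the 10 genes on that scale; the ratio of means of Tgfb3 was higher, 8.94, on far fewer reads. It was below the minimum of 1 FPKM and so not tested as planned. With no minimum limma gave an adjusted p of 0.0146 for Tgfbr2. As TPM, Tgfbr2 reached the minimum only without the drug, that is through the group where it is high. The difference there was 1.51 (limma, adjusted p = 0.00412). The libraries numbered 1 held 65 and 348 reads, a ratio of 5.34 with an interval of 4.09 to 7.07.

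Tgfbr1, the type I receptor kinase (also called ALK5), stood at 10.0 and 8.84 FPKM with the drug and at 13.4 and 11.3 without. Both values without it were the higher, but the change of 0.37 (SE 0.12) did not pass (limma, adjusted p = 0.0599). It passed when the no-drug library 1 was left out (0.49, adjusted p = 0.0432). It also passed as TPM (0.54, limma, adjusted p = 0.0419). With isoforms of 500 nt or more its adjusted p was 0.0485, but its own values did not change. Its only shorter isoform, of 372 nt, was at 0 in every library. Its reads were 2278 and 2874, a ratio of 1.26 with an interval of 1.19 to 1.33.

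Tgfbr3, betaglycan, presents ligand to the type II receptor and is the co-receptor Tgfb2 depends on most. It stood at 0.302 and 0.395 FPKM with the drug and at 0.333 and 0.395 without, and the libraries overlapped. The difference was 0.03 and the reads, 89 and 100, gave a ratio of 1.12 with an interval of 0.834 to 1.51, so no difference was detectable at this depth. The 3 receptors therefore differed in how far apart the conditions were, a contrast between genes that was not itself tested.

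The Smads among the members did not pass. Smad4, the partner shared by the TGF-β and BMP branches, stood at 22.8 and 28.05 FPKM with doxycycline and at 20.5 and 28.8 without, and the change was -0.06 (SE 0.19, 95% interval -0.54 to 0.43, limma, adjusted p = 0.832). Its direction turned to 0.10 as TPM, to 0.09 without the drug library 1 and to 0.19 without the no-drug library 0. Most of the spread between its libraries lay in 1 short isoform of 487 nt, listed at 0, 7.15, 0 and 6.10 FPKM, that is at 0 in both libraries numbered 0. Without isoforms under 500 nt Smad4 stood at 22.8 and 20.9 FPKM with the drug and at 20.5 and 22.7 without, which still overlapped.

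Smad7, the inhibitory Smad that TGF-β itself induces, stood at 27.6 and 23.96 FPKM with the drug and at 30.9 and 25.3 without. The libraries overlapped and the change was 0.12 (SE 0.13, 95% interval -0.22 to 0.45, limma, adjusted p = 0.503), or -0.02 without the no-drug library 0. In both conditions library 0 was the higher, so the libraries differed by number more than by drug. Its main isoform of 4278 nt, at 16.1, 14.2, 15.3 and 15.6 FPKM, showed no difference beyond the spread.

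The corepressors were the 2 tested members that passed. Ski, the cellular form of a retroviral oncogene, stood at 22.5 and 22.6 FPKM with doxycycline and at 31.1 and 31.4 without. Its replicates were close and well apart between conditions, and the change was 0.46 (SE 0.08, 95% interval 0.26 to 0.66, limma, adjusted p = 0.00988), a ratio of means of 1.38. The recovered reads, 5599 and 7759, gave the same ratio of 1.38, with an interval of 1.34 to 1.43. The call was lost when the drug library 0 (adjusted p = 0.0623) or the drug library 1 (adjusted p = 0.0612) was left out, although the change remained 0.46 in both. Those fits rest on 1 library in a group, which is assumed to vary like the other group.

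Skil, whose transcription is raised by TGF-β and whose protein is degraded on signalling, stood at 17.3 and 18.7 FPKM with the drug and at 26.6 and 24.1 without. The libraries did not overlap, and the change was 0.48 (SE 0.09, 95% interval 0.24 to 0.72, limma, adjusted p = 0.0149), a ratio of means of 1.41. Its reads were 4818 and 6304, a ratio of 1.31 with an interval of 1.26 to 1.36. The call was lost without the drug library 0 (adjusted p = 0.0783) or the no-drug library 0 (adjusted p = 0.0532). Ski was called under 12 of 15 other settings and Skil under 11, and both stayed higher without the drug under all 15.

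**Figure D3:**
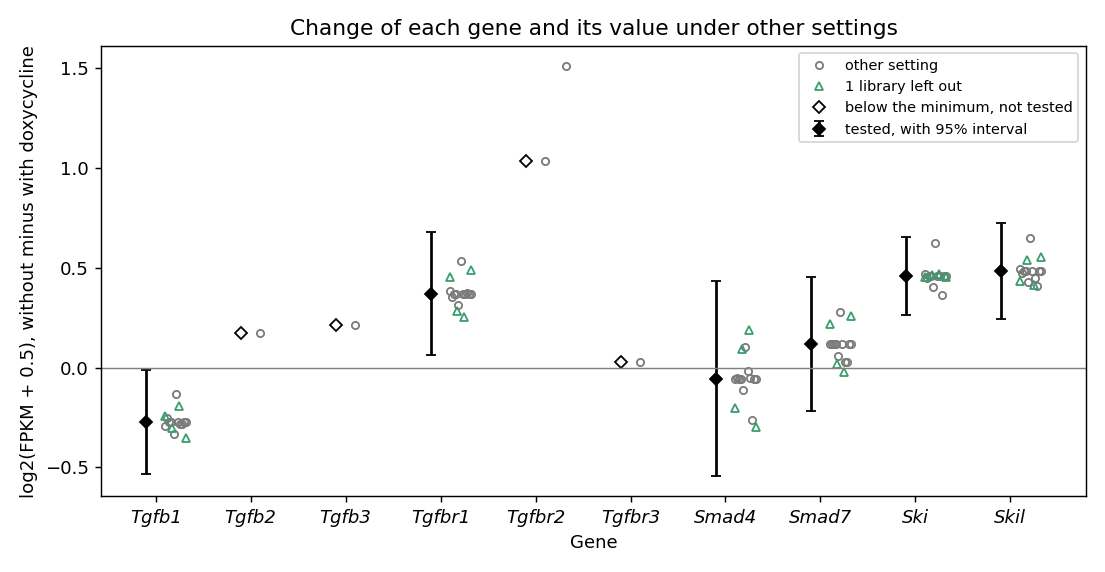
Difference of log2(FPKM + 0.5), without minus with doxycycline, for the 10 genes: filled diamonds with 95% intervals were tested, open diamonds were below the minimum, and small symbols give the value under other settings (grey circles) and with 1 library left out (green triangles). Ski and Skil lie above 0 under every setting, Smad4 falls on both sides of it, and Tgfbr2, untested at 1.04, lies farthest from it.

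The isoforms say where in each locus these levels come from, as values only, since Cufflinks divides shared reads between overlapping isoforms. Ski (chr4:154528184-154596701, minus strand, build NCBIM37) had 4 isoforms. One of 5522 nt held 21.1 and 20.1 FPKM with the drug and 28.5 and 25.0 without, and one of 5293 nt was listed at 0.731 and 2.51 with it and at 1.90 and 5.58 without. Both end in the same exon of about 3455 nt, so both carry the miR-17 match. Skil (chr3:30993365-31021553, plus strand) had 12 isoforms. The leading one, 6582 nt, stood at 11.7, 12.5, 18.2 and 14.4 FPKM. One of 2904 nt, with a last exon of 537 nt in place of 4123 nt, was listed at 0 and 3.05 with the drug and at 0.000530 and 4.23 without, that is in the libraries numbered 1 and hardly at all in those numbered 0. A 6717-nt isoform showed the opposite, at 2.35, 0.000766, 4.86 and 0.740 FPKM. Counted by their most abundant isoform alone, Ski changed by 0.36 (limma, adjusted p = 0.0971) and Skil by 0.41 (adjusted p = 0.130), and neither passed.

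Tgfbr2 (chr9:115993415-116084383, minus strand) had 2 isoforms of 8013 and 8088 nt that share a last exon of 6261 nt, chr9:115993415-115999675. The shorter stood at 0.0526, 0.178, 0.428 and 0.532 FPKM and the longer at 0.146, 0.000361, 0.449 and 0.416. Each was higher in both libraries without the drug, while the division between them changed from library to library. The sum is the steadier value. Tgfbr1 (chr4:47366086-47427817, plus strand) had 8 isoforms, led by one of 5756 nt at 7.31, 4.99, 8.94 and 7.14 FPKM and one of 5766 nt at 1.81, 3.50, 3.66 and 3.22. The conditions overlapped in each of these, and separated in their sum over all isoforms. Tgfb1 (chr7:26472574-26490097, plus strand) was almost wholly 1 isoform of 1621 nt.

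**Figure D4:**
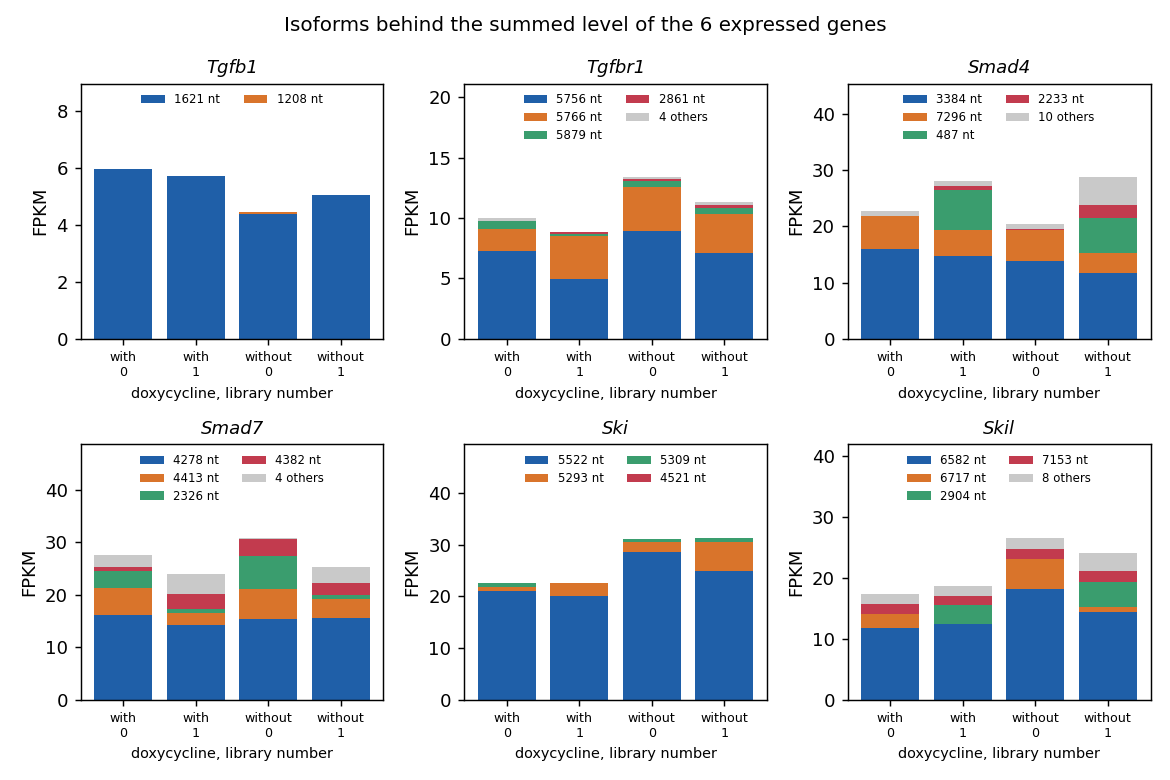
FPKM of the most abundant isoforms, named by length in nt and stacked as bars from 0, for the 6 tested members in the drug libraries 0 and 1 and the no-drug libraries 0 and 1. In Smad4 a 487-nt isoform is listed only in the libraries numbered 1, and in Ski the 5522-nt isoform makes up most of every bar.

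The rest of the pathway was described through 7 lists of 90 genes, of which 88 had a row (Lrrc32 and Skor2 had none under those symbols) and 70 were tested. Of these 23 were higher without the drug, 7 lower and 40 did not pass. That is 42.9% called beside 41% of all genes, with a median change of 0.06 beside -0.06. By list, in the order below, 75%, 55.6%, 40%, 8.33%, 27.3%, 33.3% and 62.5% of the tested genes were called. With each 1 of the 4 libraries left out in turn, 20 of the 30 kept their call throughout, 19 higher and 1 lower (Mmp2). The number lower was 7 with all libraries, 2 without the drug library 0, and 1 without the drug library 1 or the no-drug library 0.

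Among 13 genes of ligand latency and activation, 8 were tested, 5 were higher and 1 lower, with a median of 0.42 (0.26 over all 13 with no minimum). With any 1 library left out 3 were higher. Itgav, the integrin αv chain that helps release active TGF-β, stood at 9.08 and 7.995 FPKM with the drug and 29.9 and 29.1 without, and rose by 1.73 (SE 0.10, limma, adjusted p = 0.00150). Thbs1, thrombospondin 1, another activator, rose from 0.394 ± 0.00974 to 1.38 ± 0.304 FPKM. Thbs1 and Fbn1 reached the minimum for testing only without the drug. Furin, the protease that cleaves the ligand precursor, rose from 6.48 ± 0.0195 to 13.0 ± 0.873 FPKM (0.95, adjusted p = 0.00263). Ltbp4, which tethers latent TGF-β to the matrix, fell from 115 ± 2.49 to 84.1 ± 4.38 FPKM (-0.45, adjusted p = 0.0145). Fbn1 (0.44, adjusted p = 0.0498) and Emilin1 (0.40, adjusted p = 0.0497) passed narrowly, and both calls were lost without any 1 library, with adjusted p from 0.0623 to 0.205. That of Ltbp4 was lost without the drug library 0 (0.0995), the drug library 1 (0.0786) or the no-drug library 0 (0.0516). The tested gene of the list with the highest level that did not pass was Nrros, at 3.34 ± 0.633 and 4.07 ± 0.343 FPKM, whose 0.26 turned to -0.20 by its most abundant isoform.

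Of 10 co-receptors and receptor adaptors, 9 were tested, 3 were higher and 2 lower. Their median of -0.15 was -0.04 without the drug library 1 and turned to 0.01 without the no-drug library 0. Cd109, a membrane protein that binds TGF-β and dampens its signal, stood at 1.47 and 1.47 FPKM with the drug and 8.29 and 6.91 without, and rose by 2.03 (SE 0.12, limma, adjusted p = 0.00159). Eng, endoglin, rose from 13.9 ± 1.70 to 25.2 ± 4.17 FPKM (0.83, adjusted p = 0.0117), and the receptor tyrosine kinase Axl from 1.35 ± 0.0343 to 2.62 ± 0.115 (0.75, adjusted p = 0.00712). With only isoforms equal to a reference transcript Axl stood at 0.27 and did not pass (adjusted p = 0.328). Strap, a receptor-binding inhibitor, fell by 0.50 (adjusted p = 0.0173), and Fkbp1a, which holds the type I receptor inactive, fell by 0.35 (adjusted p = 0.0247). The call of Strap was lost without 3 of the libraries (drug library 0, 0.0537; drug library 1, 0.101; no-drug library 0, 0.0554) and that of Fkbp1a without any 1 (0.0678 to 0.176). Ppp1r15a, at 14.4 ± 1.58 and 13.0 ± 2.15 FPKM, did not pass, and its -0.15 turned to 0.00 as TPM and to 0.01 without the no-drug library 0.

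Of the 6 other Smads, 5 were tested. Smad3, the receptor-regulated Smad that binds DNA directly, stood at 4.64 and 4.90 FPKM with the drug and 8.94 and 9.05 without, and rose by 0.85 (SE 0.09, limma, adjusted p = 0.00305). Smad6, the inhibitory Smad of the BMP branch, rose from 5.53 ± 0.365 to 8.81 ± 0.948 FPKM (0.62, adjusted p = 0.0119). Both calls held with any 1 library left out. Smad2, the other Smad of the TGF-β branch and the more abundant, was at 24.4 ± 2.59 and 24.6 ± 2.25 FPKM and its change of 0.01 (adjusted p = 0.929) had either sign across settings. Of the 12 ubiquitin enzymes and phosphatases, all tested, 11 did not pass, among them Usp9x, the deubiquitinase that acts on Smad4, at 78.7 ± 3.41 and 89.4 ± 0.961 FPKM, which passed as higher as TPM (0.34, adjusted p = 0.0340). Usp15 fell by 0.35 (adjusted p = 0.0484), a call lost without any 1 library (0.0532 to 0.269).

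Among 14 other co-repressors and partners, 11 were tested, 2 were higher and 1 lower. Their median of -0.10 turned to 0.03 without the drug library 1, to 0.01 without the no-drug library 0, to 0.06 as TPM and to 0.05 with reference isoforms only. Prdm16, which binds Ski, stood at 0.738 and 1.46 FPKM with the drug and 4.13 and 4.64 without, and rose by 1.65 (SE 0.24, limma, adjusted p = 0.00648), a call lost with reference isoforms only (adjusted p = 0.0834). Tgif2 rose by 0.31 (adjusted p = 0.0329), a call lost without any 1 library (0.0810 to 0.190). Ctbp1 fell by 0.41 (adjusted p = 0.0164), lost without the drug library 0 (0.0714), the drug library 1 (0.115) or the no-drug library 0 (0.0588), and stood at 0.05 when only isoforms equal to a reference transcript were counted. Tgif1, at 105 ± 6.69 and 97.8 ± 8.70 FPKM, did not pass, and neither did Ncor1, Hdac1, Hdac2 and Sin3a, partners of the Ski complex. Ski and Skil were called and these 4 were not, a difference between genes that was not itself tested.

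Of the 11 co-activators and DNA-binding partners, 9 were tested, 2 were higher and 1 lower. Jun rose from 1.41 ± 0.0270 to 4.38 ± 0.504 FPKM (1.35, limma, adjusted p = 0.00243) and Fos from 1.89 ± 0.423 to 4.10 ± 0.331 (0.95, adjusted p = 0.00933); both are subunits of AP-1. Atf3 fell by 0.72 (limma, adjusted p = 0.0419), and reached the minimum for testing only with the drug. That call was lost without the drug library 1 (change -0.59) or the no-drug library 0 (change -0.49). E2f4, at 110 ± 12.9 and 80.5 ± 12.8 FPKM, did not pass (-0.45, limma, adjusted p = 0.0625). Its change ranged from -0.61 to -0.28 with 1 library left out. It passed as lower with the condition medians set equal (0.0432). It also passed with isoforms of 500 nt or more (0.0491), where its own change stayed at -0.45.

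Of 22 genes reported as TGF-β targets in various cell types, 16 were tested, 9 were higher and 1 lower, with a median of 0.64, beside 41% called and 19.7% higher among all genes. With no minimum all 22 were tested, 7 were higher and the median was 0.15. Bhlhe40, a transcription factor, stood at 3.22 and 3.26 FPKM with the drug and 22.0 and 15.3 without, and rose by 2.33 (SE 0.18, limma, adjusted p = 0.00199). Snai1, a repressor known from epithelial-mesenchymal transition, rose from 1.15 ± 0.149 to 4.01 ± 0.0746 FPKM (1.45, adjusted p = 0.00224). Junb rose by 1.08 and Col4a1, a basement membrane collagen, by 0.99. The count higher was 8 or 9 with any 1 library left out. Klf10, at 32.5 ± 0.360 and 36.9 ± 2.33 FPKM, did not pass, and Ctgf, Cyr61, Tgfbi, Tagln and Zeb1 did not either. Col1a1, Col1a2 and Acta2, known as targets in fibroblasts and smooth muscle, were below 1 FPKM in every library. Tagln, Fn1 and Mmp2 of the same list were above it. Tagln stood at 2.02 ± 0.0214 FPKM with the drug and 1.55 ± 0.0621 without, Fn1 at 114 ± 9.27 and 158 ± 14.6. Mmp2 stood at 3.59 ± 0.272 and 2.05 ± 0.106 FPKM. Many of these genes also answer to other signals, so the list does not read out the pathway by itself.

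**Figure D5:**
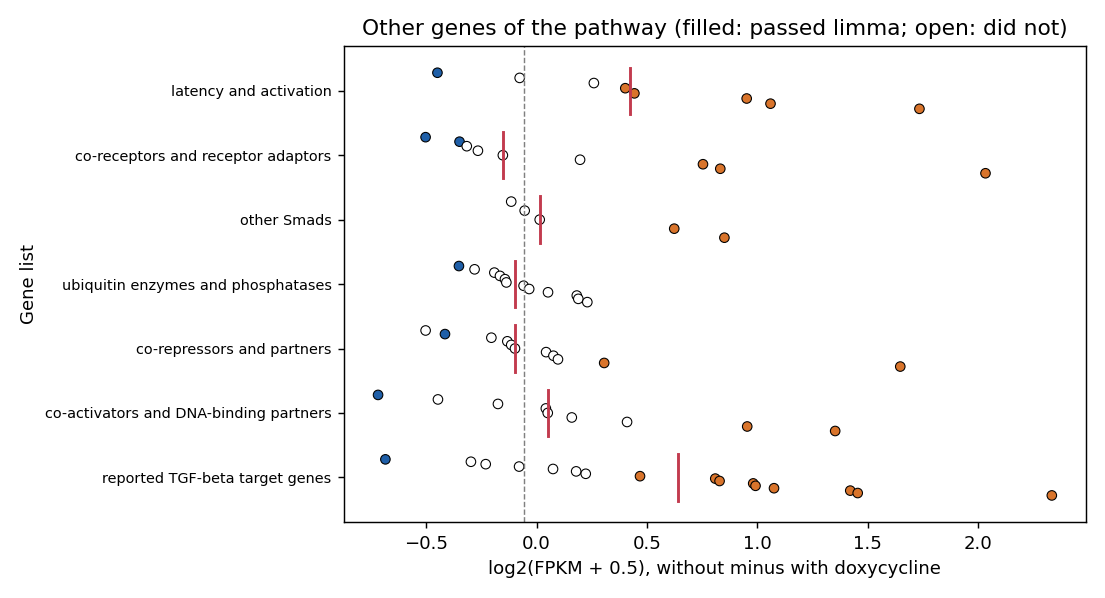
Change in log2(FPKM + 0.5), without minus with doxycycline (x axis), of the 70 tested genes in 7 lists of the pathway (rows); orange points passed as higher, blue as lower, open points did not pass, red bars are list medians and the dashed line is the median of all genes tested. The red bar of the reported target genes is at 0.64 and that of the co-receptors and receptor adaptors at -0.15, and called genes of both directions lie in 5 of the 7 lists.

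Tgfbr2 had the largest difference among the members on the log2(FPKM + 0.5) scale, so the tested genes nearest to it in pattern were looked up, by the root mean square distance of log2(FPKM + 0.5) centred on each gene's mean over the 4 libraries. The nearest were Klhdc5 (distance 0.0117), Tmem184b (0.0144) and Cpt1c (0.0164). Klhdc5 stood at 4.19 and 3.98 FPKM with the drug and 8.74 and 9.06 without, Tmem184b at 16.2 and 15.6 against 32.0 and 33.2, and Cpt1c at 10.0 and 9.69 against 19.6 and 20.9. All 3 were expressed well above Tgfbr2, whose own log2 values are compressed by the added 0.5. A likeness over 4 libraries in 2 conditions describes little beyond the size of the change.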

How the data were processed

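The authors deposited FPKM per isoform, on build NCBIM37, with Cufflinks 2.1.1 after TopHat2 2.0.9, per the submitters' processing notes, over a merged assembly whose deposited annotation gave the coordinates. The library total behind the scaling is not given in the sources used here. Of 181027 isoforms, the 141569 that carried a gene name, were at least 200 nt long and matched or shared a junction with a named transcript were summed per gene; isoforms under 200 nt held 98.9% to 99.6% of the summed FPKM. Symbols of 236 isoforms turned into dates were restored from a second deposited table. The summed FPKM used was 449360 to 535107 per library.

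Gene values were tested with limma 3.58.1 in R 4.3.3 (trend, two-sided) on log2(FPKM + 0.5) over the 13207 genes whose mean reached 1 FPKM with or without doxycycline, with Benjamini-Hochberg adjustment at 0.05 and 15 alternatives; the procedure was tested on simulated data. Read steps were fitted on single transcripts of at least 500 nt at 1 to 6 reads, within 0.1 read. UTRs came from GENCODE M21, used for sequences only, and mature microRNAs from RefSeq; miR-122-5p and miR-1a-3p had no entry. Eif2c2, Lbxcor1 and Lrrc33 were read as Ago2, Skor1 and Nrros through RefSeq synonyms.

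The text names all members, up to 5 called genes of each pathway list by size, its most abundant gene that did not pass, the 3 genes nearest to Tgfbr2, and Ago2; other names were added after their values were seen, and 1 gene the rule took is not reported here. The members and lists were chosen with earlier results of these data known. The columns' numbers (0, 1) have no match among the replicate numbers of the labels (1, 2), so libraries were treated as unpaired. The promoter and construct behind Ago2 control, and members' protein sequences, were not used here. Python 3.11.15 with pandas 2.3.3, scipy 1.17.1 and matplotlib 3.10.9 did the rest.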

Additional observations from a re-analysis of the deposited data

How the results depend on the processing

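Of 609 values of single genes under alternatives, 515 kept direction and side of the threshold, 64 lost their call, 16 gained one and 14 changed sign; where no cause is named, the cause was not tested. Genes higher without doxycycline numbered 2608, against 3996 as TPM, 1277 with isoforms equal to a reference transcript only, 1067 by the most abundant isoform and 1784 to 2048 with 1 library left out. Genes lower numbered 2809, against 1313, 986 and 1438 to 2501 in the last 3. Members higher numbered 2, against 4 with no minimum or as TPM, 1 with reference isoforms only, 0 by the most abundant isoform and 0 to 3 with 1 library left out. Members lower numbered 0, against 1 (Tgfb1) with the condition medians set equal. Pathway genes higher numbered 23, against 13 at a minimum of 5 FPKM, where fewer genes were tested. Pathway genes lower numbered 7, against 3 with reference isoforms only, 4 by the most abundant isoform and 1 to 8 with 1 library left out. Changes of sign were Ctbp1 at 0.054 (reference isoforms only), Nrros at -0.20 (most abundant isoform), Tgif1 at 0.062 (TPM), Ppp1r15a at 0.0022 (TPM), Smad4 at 0.10 (TPM), and Smad2 at -0.044 (medians equal), -0.0055 (reference isoforms only) and -0.018 (most abundant isoform). With 1 library left out, Ppp1r15a ranged from -0.32 to 0.011, Smad2 from -0.092 to 0.12, Smad4 from -0.30 to 0.19 and Smad7 from -0.024 to 0.26.

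With the column number as a replicate block, genes lower numbered 4530, pathway genes lower 16 and members lower 1 (Tgfb1, limma, adjusted p = 0.0488), and Tgfbr1 (adjusted p = 0.00655), Klf10 (0.0379) and Usp9x (0.0255) passed as higher and E2f4 as lower (0.0024). Same-numbered libraries deviated together (r = 0.461 across 13207 genes, which are not independent), with 2 pairs, and nothing in the labels says that they share a culture or day. Depth is unknown for the libraries numbered 0, and limits Tgfb2, Tgfb3, Tgfbr2 and Tgfbr3 most.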
